A study of Mus musculus with 83 samples.

Results

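The insulin signaling and glucose transporter genes described here are 9 genes fixed by symbol: Insr, Irs1, Irs2, Pik3r1, Akt1, Akt2, Foxo1, Slc2a1 and Slc2a4. All 9 are among the 11144 genes of the culture tables, and 12 of the 29082 RefSeq transcripts of the tissue table belong to them. The libraries came from C57BL/6J mice. The tissue library was RNA of interscapular brown adipose tissue at 16 weeks of age. The culture libraries were RNA of brown preadipocytes from newborn mice, homozygous for a floxed Pparg allele and immortalized with SV40 large T antigen, taken when proliferating (day -3), confluent (day 0), immature adipocytes (day 2) and mature adipocytes (day 7). Differentiation was induced at day 0 with dexamethasone (2 μg/ml), IBMX (0.5 mM), indomethacin (0.125 mM), the thyroid hormone T3 (1 nM) and insulin (0.02 μM), and the later medium kept insulin and T3 at these concentrations. The cells of days 2 and 7 had therefore been kept in insulin itself, and whether the day 0 cells were taken before induction is not given. The culture is an immortalized line, no Cre is named for these cells, and whether they are 1 clone is not given. Each time and the tissue had 1 library, so no value has a replicate error, no test was possible and no p-value is given. Of the 83 samples of the series, 78 were not used here.

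Insulin binds its receptor tyrosine kinase, encoded by Insr, which phosphorylates the docking proteins IRS1 and IRS2. These recruit phosphoinositide 3-kinase through its regulatory subunit, encoded by Pik3r1, and the kinases AKT1 and AKT2 are activated downstream. In fat and muscle AKT2 has a leading part in moving the glucose transporter GLUT4, the product of Slc2a4, to the cell surface, whereas GLUT1, the product of Slc2a1, serves basal uptake in many cell types. FOXO1 is a transcription factor that AKT keeps out of the nucleus.

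The 9 genes lay close together in mature adipocytes and far apart in proliferating cells. At day 7 the lowest was Foxo1 at 31.2 FPKM and the highest Slc2a4 at 77.8 FPKM. At day -3 the lowest was Slc2a4 at 0.0432 FPKM and the highest Akt1 at 234 FPKM. FPKM are fragments scaled for transcript length and for mapped fragments, so levels of different genes can be set side by side. Their median was 13.3, 14.8, 22.2 and 58.4 FPKM at days -3, 0, 2 and 7, where all 11144 listed genes had medians of 12.2, 13.0, 13.2 and 13.4 FPKM. The number above the median of their library was 5, 5, 8 and 9. The order of levels also differed between days. Akt1 was first at days -3, 0 and 2 and Slc2a4 was last, while at day 7 Slc2a4 was first, ahead of Akt1, Pik3r1, Slc2a1, Akt2, Irs2, Insr, Irs1 and Foxo1. With 1 library a day, whether neighbours in this order differ beyond their spread cannot be said. In these bulk libraries, fewer cells of a type and less RNA per cell cannot be told apart.

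**Figure D1:**
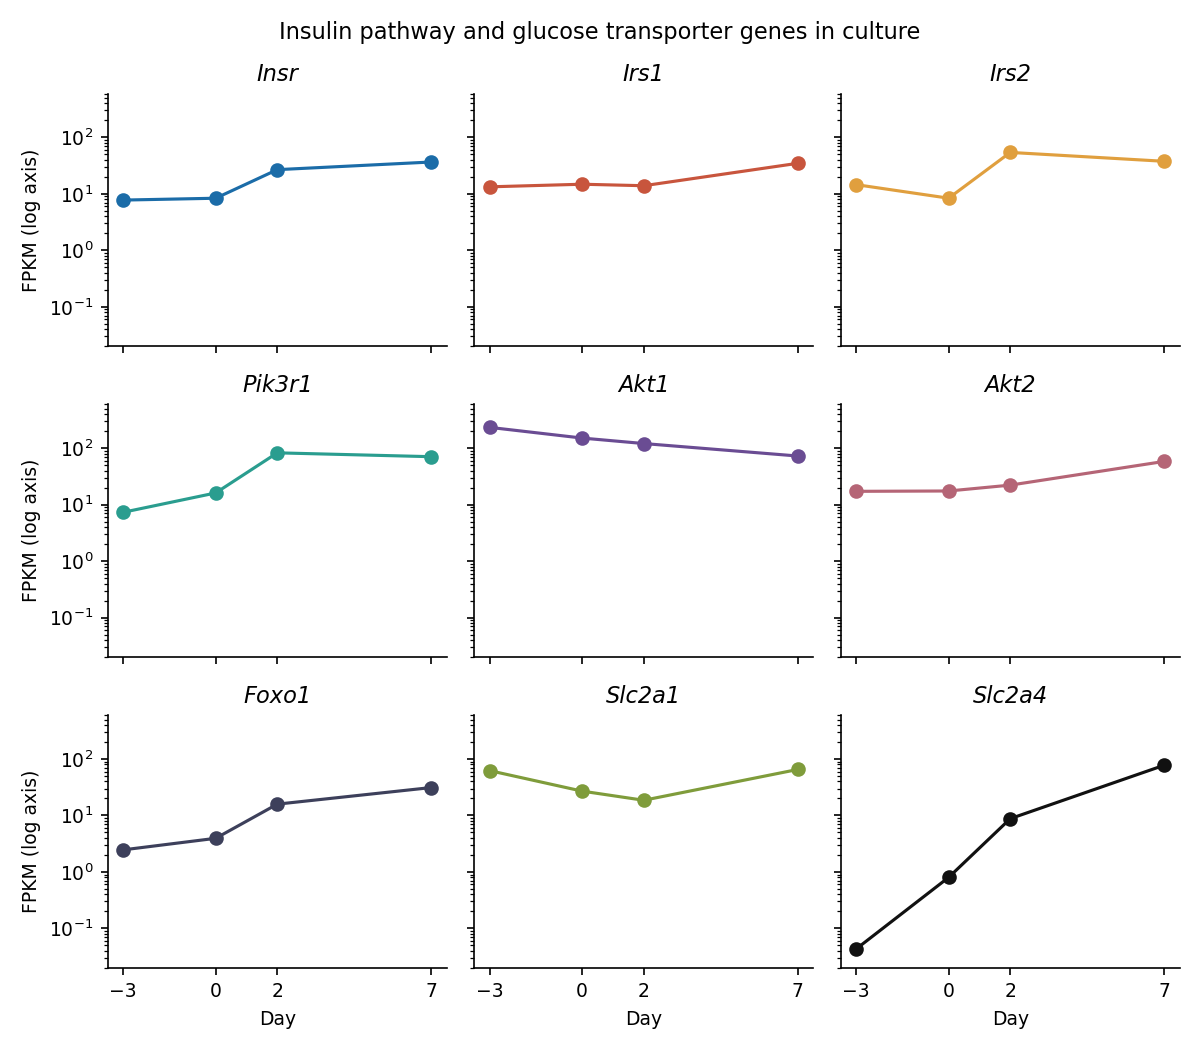
FPKM of the 9 genes (log axis) by day of culture, 1 library at each of the 4 days. Slc2a4 is at 0.0432, 0.801, 8.78 and 77.8 FPKM, Akt1 is lower at each later day, and Slc2a1 is lowest at day 2.

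The first question was what differed between cultures of successive days. The size rule was a difference of log2(FPKM + 1) of at least 1 either way, which is 2-fold on that scale, among genes with at least 1 FPKM in either library. On this scale differences of low genes are understated. At day 2, 5 of the 9 genes stood higher than at day 0 and 0 lower, where 6.18% of all 10717 compared genes were higher and 10.7% lower. At day 7, 4 of the 9 stood higher than at day 2 and 0 lower, where 9.62% of all compared genes were higher and 5.14% lower. From end to end, 7 of the 9 stood higher at day 7 than at day -3 and 1 lower, where 20.3% of all compared genes were higher and 14.7% lower. Between day 0 and day -3, 1 of 8 compared genes was higher and 1 lower, where 11.3% of all genes were higher and 5.43% lower. The median difference at that step was 0.06 over the 8 genes and 0.06 over all genes. The median differences of the 9 genes were 1.57 at day 2 over day 0, 0.94 at day 7 over day 2 and 1.70 at day 7 over day -3. All compared genes had medians of -0.01, 0.02 and 0.07 at these steps. The steps share libraries, so they do not stand as separate evidence. The 9 genes were chosen with earlier results of these data known, so the counts describe them only.

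**Figure D2:**
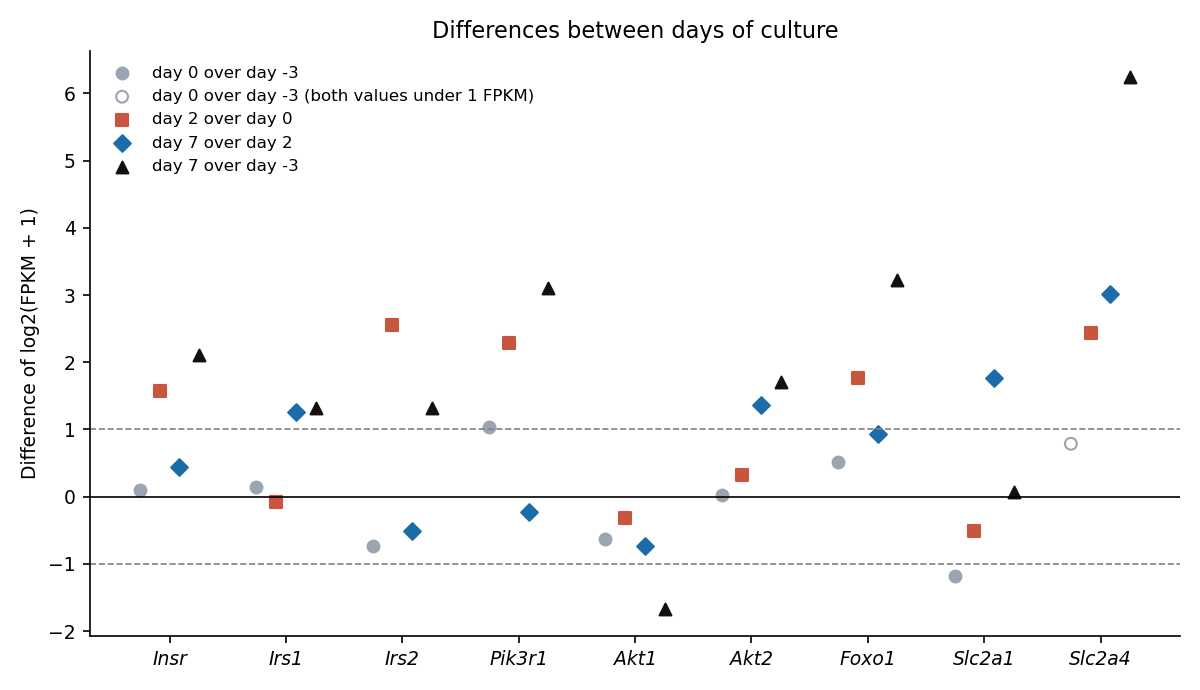
Differences of log2(FPKM + 1) for the 9 genes at each of the 4 comparisons of 2 culture libraries, the later day over the earlier, with dashed lines at a difference of 1 each way and an open circle where both values are under 1 FPKM. At day 2 over day 0, Insr, Irs2, Pik3r1, Foxo1 and Slc2a4 lie above the upper line, and at day 7 over day 2 Irs1, Akt2, Slc2a1 and Slc2a4 do.

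The receptor gene was higher at day 2 than at day 0. Insr was at 7.77, 8.37, 26.9 and 36.7 FPKM at days -3, 0, 2 and 7. The levels at days -3 and 0 lay close together and those at days 2 and 7 lay above them. Its difference at day 2 over day 0 was 1.57 on the log2(FPKM + 1) scale, and the 0.44 at day 7 over day 2 was within 2-fold.

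The docking proteins followed separate courses. Irs2 was at 14.6, 8.39, 54.3 and 37.8 FPKM at days -3, 0, 2 and 7, with its highest level at day 2. Its difference at day 2 over day 0 was 2.56. Irs1 was at 13.3, 14.8, 13.9 and 34.8 FPKM, so it was level until day 2 and higher at day 7 alone. Its difference at day 7 over day 2 was 1.26. The ratio of Irs1 to Irs2 within a library, which does not depend on how the library was scaled, was 0.915, 1.77, 0.257 and 0.922 at days -3, 0, 2 and 7. Irs2 thus stood above Irs1 by 3.89 times at day 2, and the genes were near parity at days -3 and 7.

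Pik3r1, the gene of the regulatory subunit, was at 7.33, 16.1, 82.8 and 70.8 FPKM at days -3, 0, 2 and 7. It was the 1 member that was higher at day 0 than at day -3, by 1.04, which lies just past the limit of 1. That call was lost when each library was divided by its median-of-ratios factor, where the difference was 0.97, and with a pseudocount of 5, where it was 0.78. At day 2 over day 0 the difference was 2.29. Foxo1 was at 2.46, 3.94, 15.9 and 31.2 FPKM, with a larger value at each later day. Its difference at day 2 over day 0 was 1.77, and that at day 7 over day 2, 0.94, lay just inside the limit.

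Promoters of Pik3r1, Irs2 and Foxo1, which were higher at day 2 than at day 0, and of Slc2a1, which had its lowest level at day 2, are shown to set genes of unlike course side by side. They are RefSeq windows of build GRCm38.p6, which is not the mm9 build named for the libraries. Of the 9 genes, 7 matched the table, with 12 windows in all. Each run is the 250 bases before an annotated start, written 5′ to 3′ on the gene's strand. Pik3r1 has an upstream start and a start inside the gene. Capitals mark GGGCGG read on either strand (CCGCCC on the other), the core of the GC box that SP1-type factors bind.
Pik3r1, upstream start, chr13:101768218-101768467, minus strand: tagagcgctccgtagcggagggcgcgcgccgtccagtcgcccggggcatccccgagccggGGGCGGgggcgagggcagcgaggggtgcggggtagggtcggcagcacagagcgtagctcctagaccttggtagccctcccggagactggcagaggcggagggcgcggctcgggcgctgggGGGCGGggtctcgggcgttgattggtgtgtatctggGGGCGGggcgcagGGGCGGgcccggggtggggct
Pik3r1, inner start, chr13:101692631-101692880, minus strand: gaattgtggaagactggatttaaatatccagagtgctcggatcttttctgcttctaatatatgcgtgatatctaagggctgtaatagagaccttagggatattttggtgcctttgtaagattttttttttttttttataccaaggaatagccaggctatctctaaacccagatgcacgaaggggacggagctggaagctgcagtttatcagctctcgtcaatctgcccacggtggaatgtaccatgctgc
Irs2, chr8:11008930-11009179, minus strand: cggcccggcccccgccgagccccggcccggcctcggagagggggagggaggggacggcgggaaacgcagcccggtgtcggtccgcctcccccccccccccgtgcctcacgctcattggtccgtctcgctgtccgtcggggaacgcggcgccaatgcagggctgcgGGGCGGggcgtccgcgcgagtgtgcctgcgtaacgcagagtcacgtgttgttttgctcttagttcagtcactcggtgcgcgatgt
Foxo1, chr3:52268087-52268336, plus strand: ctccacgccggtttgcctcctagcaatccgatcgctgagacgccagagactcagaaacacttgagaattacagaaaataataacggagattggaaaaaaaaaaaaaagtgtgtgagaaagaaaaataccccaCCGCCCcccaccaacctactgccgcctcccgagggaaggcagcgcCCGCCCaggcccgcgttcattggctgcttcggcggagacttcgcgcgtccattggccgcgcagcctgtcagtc
Slc2a1, chr4:119108495-119108744, plus strand: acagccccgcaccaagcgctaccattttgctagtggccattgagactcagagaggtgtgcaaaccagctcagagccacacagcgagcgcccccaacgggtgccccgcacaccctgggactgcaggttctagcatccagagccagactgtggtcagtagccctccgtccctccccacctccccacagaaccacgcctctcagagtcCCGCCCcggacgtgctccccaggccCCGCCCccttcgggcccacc

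The windows of Pik3r1 differ in composition. The upstream one holds 76.4% G and C, 30 CpG dinucleotides and 4 copies of GGGCGG, and the inner one 42.4%, 6 CpG dinucleotides and 0 copies. Over the 32817 promoter windows of the table the medians were 52.4% and 6 CpG dinucleotides. Irs2 had 72.8% and 34 CpG dinucleotides, Slc2a1 66.4% and 13, and Foxo1 56% and 20. GGGCGG was in 7 of the 12 member windows, which leave out Insr and Slc2a4, and in 32.7% of all windows. The C/EBP-type motif TTGCNNAA, with N any base, was in 0 of 12 windows and in 9.57% of all windows, and the glucocorticoid half-site AGAACA in 0 of 12 and 16.1%. The nuclear receptor half-site AGGTCA and the FOXO-type motif GTAAACA were each in 1 of 12, a window of Akt1, and in 14.0% and 3.16% of all windows. Motifs were searched on both strands. A match here is a description of letters, not of binding.

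The AKT genes ran in opposite directions. Akt1, the broadly expressed form, was at 234, 151, 121 and 72.7 FPKM at days -3, 0, 2 and 7. Each of the 3 successive differences was within 2-fold, at -0.63, -0.32 and -0.73, as was every step of 7411 listed genes, or 66.5%. From end to end Akt1 was lower at day 7 by a difference of -1.67, the 1 member lower between these days. Akt2 was at 17.2, 17.5, 22.2 and 58.4 FPKM, nearly level until day 2. Its difference at day 7 over day 2 was 1.36. The ratio of Akt2 to Akt1 was 0.0737, 0.116, 0.183 and 0.803 at days -3, 0, 2 and 7. Their sum was 251, 169, 143 and 131 FPKM, so Akt1 made up most of it until day 2 and the genes were close to equal at day 7.

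Both glucose transporter genes were higher at day 7 than at day 2, after different courses. Slc2a4 was at 0.0432, 0.801, 8.78 and 77.8 FPKM at days -3, 0, 2 and 7. It was not compared between days 0 and -3, where both values were under 1 FPKM, and its differences were 2.44 at day 2 over day 0 and 3.01 at day 7 over day 2. Slc2a1 was at 62.2, 26.98, 18.6 and 65.3 FPKM. It was lower at day 0 than at day -3, by -1.18, and higher at day 7 than at day 2, by 1.76. The difference between days 7 and -3 was 0.07. Lower at the first step, within 2-fold at the next and higher at the last was the course of 22 of the 11144 genes (0.197%). Rescaling the libraries to a common total moved the median of all genes at day 0 over day -3 by 0.19 and the difference of Slc2a1 to -0.97, inside the limit. It also moved the genes called higher at this step to 80.6% of all genes called, against 67.6% on the values as deposited.

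The ratio of Slc2a4 to Slc2a1 was 0.000695, 0.0297, 0.473 and 1.19 at days -3, 0, 2 and 7. Slc2a4 passed Slc2a1 between days 2 and 7, although Slc2a1 was itself 3.51 times as high at day 7 as at day 2. The sum of both was 62.3, 27.8, 27.4 and 143 FPKM. The ratio at day -3 rests on a value of Slc2a4 near 0, and the depth of the culture libraries is unknown.

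Adipocyte markers differed over the same interval. The 10 adipocyte markers, among them Adipoq, Fabp4 and Plin1, summed to 81.1, 152, 7390 and 7724 FPKM at days -3, 0, 2 and 7. Each of the 10 passed the limit upwards at day 2 over day 0, where 6.18% of all compared genes did. Fabp4 and Lpl made up most of these sums, at 4811 and 1842 FPKM at day 2 and 4070 and 1264 FPKM at day 7. At day 7 over day 2, 5 of the 10 markers (50%) passed the limit upwards and 0 downwards. Of all compared genes, 9.62% and 5.14% did so. The 7 fibroblast and preadipocyte markers with values, of 8 listed, summed to 5063, 5842, 2578 and 1840 FPKM, sums made up mostly of Vim and Col1a1 on all 4 days. The 7 markers did not move together. At day 7 over day -3, 3 of 7 were higher (Pdgfra by 2.26, Dcn by 1.52 and Col3a1 by 1.11) and 2 lower (Vim and Thy1). Of all compared genes, 20.3% were higher and 14.7% lower. Markers of other cell types were few and low in culture. Muscle markers with values (2 of 8) summed to at most 7.08 FPKM, endothelial (1 of 6) to at most 1.88, red cell (1 of 5) to at most 1.94 and macrophage (2 of 6) to at most 5.44. Their part in the differences above was not tested.

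Genes of other parts of the pathway were mostly within 2-fold. Of 87 such genes on 6 lists, 74 have culture values. At day 2 over day 0, 6 of 73 compared passed the limit upwards (8.22%) and 6 downwards (8.22%). Of all compared genes, 6.18% and 10.7% did so. At day 7 over day 2, 10 of 72 passed it upwards (13.9%) and 3 downwards (4.17%), where 9.62% and 5.14% of all genes did. At day 7 over day -3, 12 of 73 passed it upwards (16.4%) and 9 downwards (12.3%), near the shares of all genes given above. The median difference of the 73 was 0.12. At the first step, day 0 over day -3, 6 of 73 passed it upwards (8.22%) and 4 downwards (5.48%). The shares of all compared genes were 11.3% and 5.43%.

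**Figure D3:**
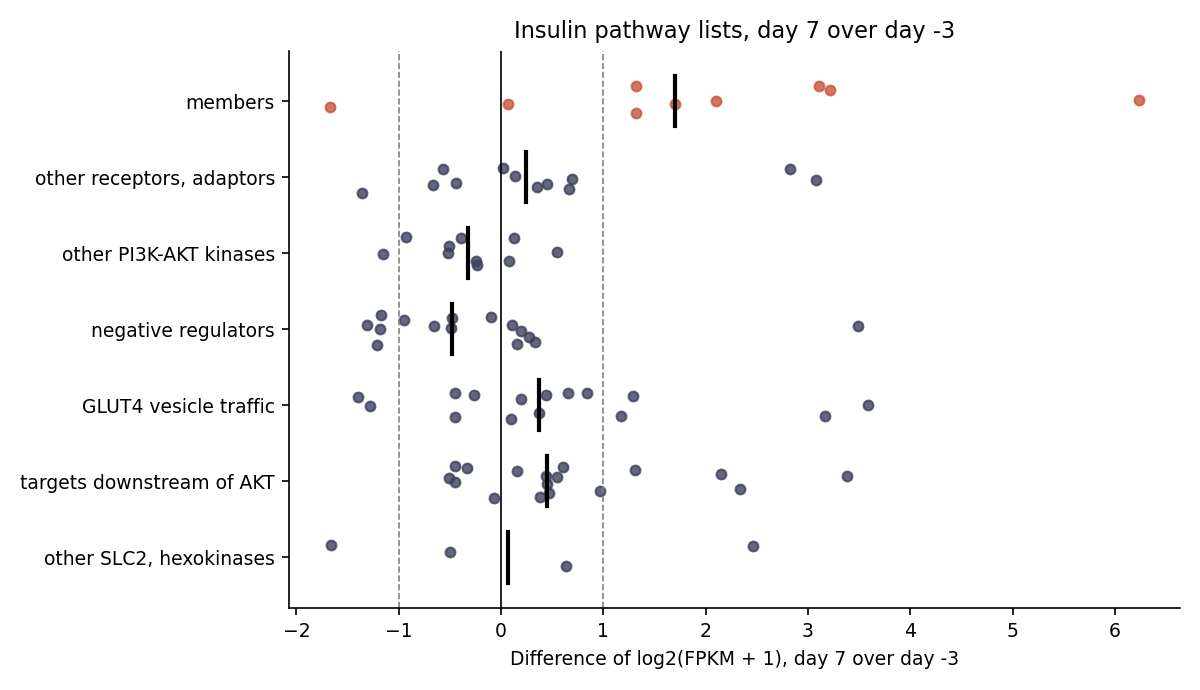
Difference of log2(FPKM + 1), day 7 over day -3, for each compared gene of the 9 members and of the 6 other pathway lists, with the median of each list as a black bar and dashed lines at 1 each way. The members have a median of 1.70, and the other lists have medians between -0.48 and 0.45. Members and lists were chosen with earlier results of these data known, so the gap is a description only.

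Among other receptors and adaptors, 2 of 12 compared genes (16.7%) were higher at day 7 than at day -3 and 1 (8.33%) was lower, where 20.3% and 14.7% of all genes were. Sh2b2, an adaptor that binds the insulin receptor, was at 4.23, 2.98, 12.6 and 43.1 FPKM at days -3, 0, 2 and 7. Irs3, a further docking protein of rodents, was at 0.150, 1.052, 0.626 and 7.14 FPKM. Igf1r, the receptor of insulin-like growth factor 1, went the other way at 25.2, 14.1, 13.7 and 9.22 FPKM. Insr and Igf1r thus exchanged places between days 0 and 2.

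Of the other genes of the kinase branch, 0 of 10 compared were higher at day 7 than at day -3 and 1 (10%) was lower, beside the same 20.3% and 14.7% of all genes. That gene was Pik3cb, a catalytic subunit, at 13.2, 5.66, 4.85 and 5.39 FPKM. Pik3ca, the catalytic subunit most tied to insulin, lay between 16.8 and 18.4 FPKM on all 4 days while Pik3r1 varied over 11.3 times. Pik3r2, another regulatory subunit gene, was at 26.9, 69.9, 59.4 and 29.4 FPKM, higher at day 0 than at day -3 by 1.34. Pik3r2 stood above Pik3r1 at days -3 and 0 and below it at days 2 and 7.

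Inhibitors of the pathway went both ways, with 1 of 15 compared genes (6.67%) higher at day 7 than at day -3 and 4 (26.7%) lower, against 20.3% and 14.7% of all genes. Trib3, a pseudokinase reported to bind AKT, was at 10.3, 54.0, 33.2 and 125.6 FPKM at days -3, 0, 2 and 7. The lower genes were Ptprf, Phlpp1, Socs1 and Ppp2cb. Inppl1, which encodes the phosphatase SHIP2, was at 56.4, 35.2, 27.3 and 60.9 FPKM and was lowest at day 2 like Slc2a1.

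Genes of GLUT4 vesicle traffic had 4 of 15 members (26.7%) higher at day 7 than at day -3 and 2 (13.3%) lower, near the 20.3% and 14.7% of all genes. Tbc1d4, the AKT substrate AS160 that holds GLUT4 vesicles back, was at 1.69, 2.07, 13.9 and 31.4 FPKM. Its relative Tbc1d1 was at 34.5, 25.8, 26.6 and 12.5 FPKM, so the paralogs crossed between days 2 and 7. The other lower gene, Myo1c, an unconventional myosin, was at 180, 78.4, 39.8 and 73.4 FPKM. Sort1, the sorting receptor sortilin, was at 4.71, 18.6, 28.7 and 50.2 FPKM. Lnpep, the aminopeptidase IRAP that travels with GLUT4, was at 16.1, 16.4, 36.7 and 40.8 FPKM. Stx4a, the remaining higher gene, was at 22.9, 40.2, 28.2 and 52.9 FPKM. Rhoq was at 37.0, 59.9, 15.8 and 66.9 FPKM, within 2-fold between days -3 and 7. It was lower at day 2 than at day 0, by -1.85, and higher at day 7 than at day 2, by 2.01. Vamp2, the vesicle SNARE, lay between 28.1 and 38.4 FPKM on all 4 days.

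Downstream of AKT, 4 of 17 compared genes (23.5%) were higher at day 7 than at day -3, near the 20.3% of all genes, and 0 were lower, where 14.7% of all genes were. Pde3b, the phosphodiesterase through which insulin restrains lipolysis, was at 8.9998, 10.4, 79.5 and 103.5 FPKM at days -3, 0, 2 and 7. Gys1, glycogen synthase, was at 20.4, 24.6, 28.1 and 94.2 FPKM. The relatives of Foxo1 were also higher, Foxo3 at 5.67, 12.1, 20.1 and 15.6 FPKM and Foxo4 at 6.07, 16.1, 16.4 and 34.7. Foxo1 was the lowest of these 3 at day -3 and stood between them at day 7.

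Few other transporters have culture values, 3 of the 10 SLC2 genes listed. With the hexokinases, 1 of 4 compared genes (25%) was higher at day 7 than at day -3 and 1 (25%) lower. The shares of all genes were 20.3% and 14.7%. Slc2a8 was at 2.65, 10.4, 14.3 and 19.1 FPKM at days -3, 0, 2 and 7. Slc2a10 was at 5.87, 6.74, 2.22 and 1.18 FPKM. Hk2, the hexokinase of insulin-responsive tissues, was at 23.4, 5.08, 14.5 and 36.9 FPKM and Hk1 at 39.1, 44.6, 16.0 and 27.4. Hk2 was lower at day 0 than at day -3 by -2.01, the step at which Slc2a1 was lower too.

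Genes whose course was most like that of each member were sought among 7856 genes that reached 10 FPKM, by the root mean square difference of log2(FPKM + 1) profiles, each centred on its own mean over the 4 culture libraries. Closest to Slc2a4 were Ybx2 at 0.075, Adck3 at 0.30 and Lama4 at 0.30. Ybx2, a Y-box RNA-binding protein, was at 0.357, 1.02, 10.9 and 94.5 FPKM. Closest to Slc2a1 were Gapdh at 0.10, Nr1d1 at 0.11 and Jun at 0.16. Gapdh, a glycolytic enzyme, was listed at 14.2, 6.18, 3.63 and 17.8 FPKM, an uncertain level. It has many near-identical pseudogene copies, and how reads shared with them were handled is not given. Their part in the listed level was not tested. Foxo1 was closest to Epas1, which encodes HIF-2α, at 0.14, then Dram1 and Dgat1. Pik3r1 was closest to Slc25a42 at 0.11, then Cyb5 and Nfia. Insr was closest to Tmem135, Per1 and Pxmp2, Irs1 to Btg2, Sept10 and Supt3h, and Irs2 to Txlng, Foxc1 and Prkar2b. Akt1 was closest to Kctd5 at 0.036, then Tgfb3 and Traf3, and Akt2 to Nrp2, Tmem143 and Zbtb7b. Each likeness rests on 4 libraries.

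The last question was how the day 7 culture stood beside brown adipose tissue. The tissue is in RPKM, reads scaled for length and depth, listed by RefSeq transcript where the culture is listed by gene, and over 10467 genes its log2(value + 1) lay below that of the culture by a median of 1.23. Levels were therefore compared by percentile rank within each library. At a limit of 25 rank points, 0 of the 9 genes ranked higher in the tissue and 2 lower, where 10.7% of all genes did so each way. The median rank difference was -12.4 over the 9 genes and 0.14 over all genes. When differences of log2(value + 1) less their median were used in place of ranks, 1 gene was higher in tissue, Slc2a4 at 1.62, and Akt1 at -1.01 joined the lower ones.

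Slc2a1 and Irs2 were those ranked lower. Slc2a1 was at 2.98 RPKM in tissue, the 34.4th percentile, against 65.3 FPKM in the day 7 culture, the 90.4th. Irs2 was at 4.15 RPKM in tissue, the 43.8th percentile, against 37.8 FPKM in culture, the 79.8th. The others lay within 25 points. Slc2a4 was at 102 RPKM in tissue, the 97.5th percentile, against 77.8 FPKM in culture, the 92.7th, and was first of the 9 in both. Akt2 was at 43.5 RPKM in tissue against 58.4 FPKM in culture, Foxo1 at 15.6 against 31.2 and Insr at 15.3 against 36.7. Akt1 was at 14.6 RPKM in tissue against 72.7 FPKM in culture, Pik3r1 at 14.4 against 70.8 and Irs1 at 7.79 against 34.8. These 3 ranked 12.4 to 14.4 points lower in the tissue.

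**Figure D4:**
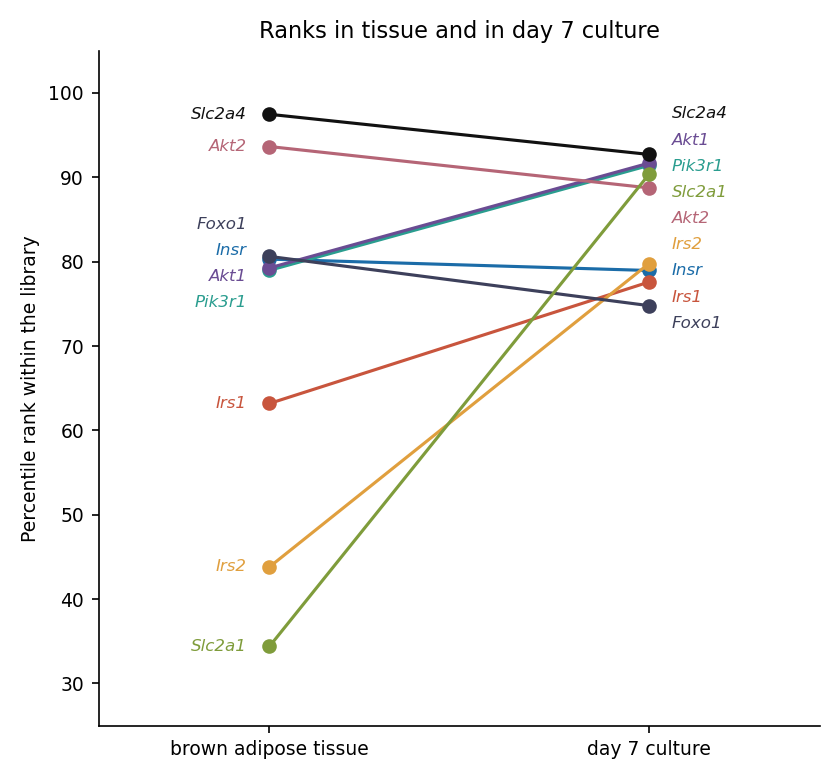
Percentile rank of the 9 genes among 10467 genes in brown adipose tissue (left) and in the day 7 culture (right), 1 library each, joined by lines. Slc2a1 stands at 34.4 in tissue and 90.4 in culture, and Irs2 at 43.8 and 79.8.

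Ratios within a library leave out the scaling of that library. They still set the highest transcript of a gene in tissue beside a gene-level value in culture. Slc2a4 stood over Slc2a1 by 34.3 in tissue, against 1.19 in the day 7 culture. Akt2 stood over Akt1 by 2.98 in tissue, against 0.803 at day 7, so the AKT genes were in the opposite order. Irs1 stood over Irs2 by 1.88 in tissue, against 0.922 at day 7. All 3 ratios lay higher in tissue than at day 7. The ratios of Slc2a4 to Slc2a1 and of Akt2 to Akt1 at day 7 were themselves above those of the earlier days, whereas the ratio of Irs1 to Irs2 had reached 1.77 at day 0.

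**Figure D5:**
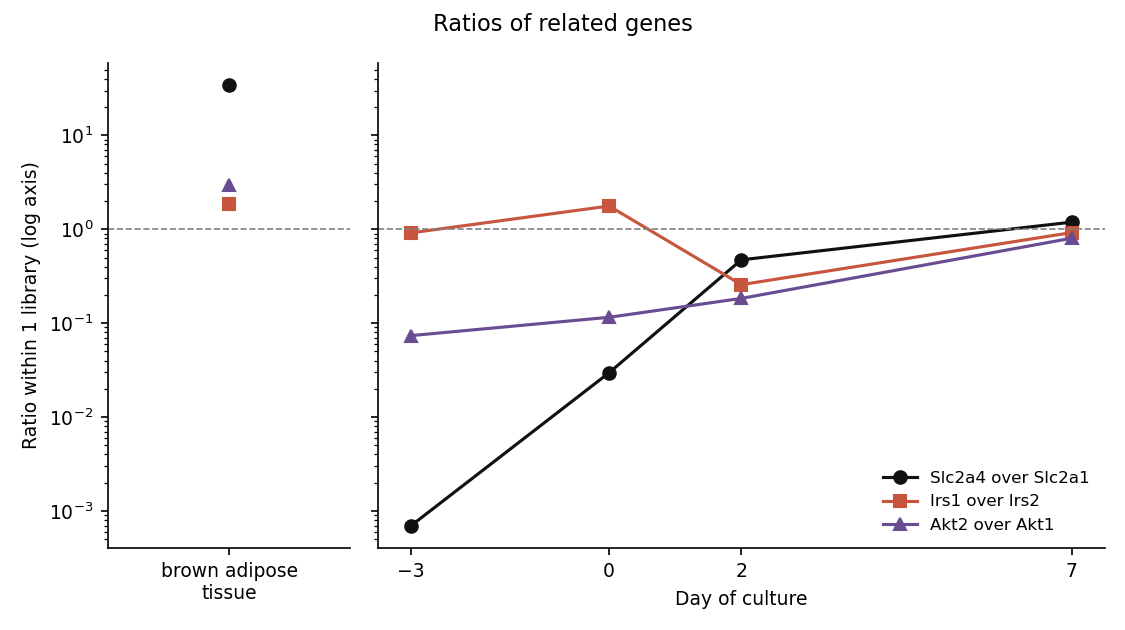
Ratio of Slc2a4 to Slc2a1, Irs1 to Irs2 and Akt2 to Akt1 within each library (log axis), in brown adipose tissue (left) and by day of culture (right), with a dashed line at 1. Slc2a4 over Slc2a1 is at 34.3 in tissue and at 0.000695 to 1.19 in culture.

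Several tissue genes have more than 1 transcript in the table, which may share reads. The Akt1 rows were at 14.6 and 14.5 RPKM, those of Akt2 at 40.1 and 43.5 and those of Pik3r1 at 14.4 and 13.8, each pair close together. A single read on 1 kb corresponded to about 0.187 RPKM in tissue. Slc2a1 then had 15.9 reads per kb of transcript and Slc2a4 547, so the lowest member lay well above the 0.561 RPKM of 3 reads on 1 kb. That estimate covers counting error only.

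Markers of muscle, endothelial, red and macrophage cells had larger sums in tissue, in RPKM, than in culture, in FPKM. All 8 skeletal muscle markers had values in tissue, from 17.1 to 534 RPKM with a sum of 1334, against 2 of 8 with a sum of 2.13 FPKM in the day 7 culture. Skeletal muscle also expresses Slc2a4 and Akt2, and its part in the tissue values was not tested. Endothelial markers (6 of 6) summed to 153 RPKM in tissue, against 0.0668 FPKM for 1 of 6 in culture. Red cell markers summed to 93.5 RPKM in tissue (4 of 5), against 1.34 FPKM for 1 of 5 in culture. Macrophage markers summed to 27.9 RPKM in tissue (5 of 6), against 5.01 FPKM for 2 of 6 in culture. Fibroblast and preadipocyte markers summed to 240 RPKM in tissue (8 of 8), against 1840 FPKM for 7 of 8 in culture. Vim and Col1a1 made up most of the culture sum, and Dcn had 52.7 RPKM in tissue, against 13.3 FPKM in culture. Adipocyte markers (10 of 10) summed to 9145 RPKM in tissue, against 7724 FPKM in culture. Fabp4 made up most of both sums, at 5960 RPKM and 4070 FPKM. Plin1, Cd36, Cidec and Lipe also had the larger number in tissue. Adipoq (554 against 590), Lpl (678 against 1264), Cfd (407 against 605), Pparg (84.7 against 185) and Cebpa (185 against 234) had the smaller. The part of all these cell types in the lower ranks of Slc2a1 and Irs2 was not tested.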

How the data were processed

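Messenger RNA was purified from Trizol-extracted RNA with Dynabeads, per the labels' protocols. The authors deposited gene-level FPKM for the 4 culture libraries and RPKM for the RefSeq transcripts of the tissue, per the file headers. The submitters' processing notes name CASAVA 1.8.2, SICER, TopHat2 2.0.10, Cufflinks 1.0.3 and build mm9 for the culture and CASAVA 1.8.2 and mm9 for the tissue; which tool made which file, and the annotation, are not given in the sources used here. Every culture gene listed reached 1 FPKM in some library, and the level of a gene without a value is not known here.

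Values were used as deposited. Tissue transcripts were matched to symbols by accession in a RefSeq table of GRCm38.p6 (28436 of 29082, 97.8%), and each gene took its highest transcript; 11001 culture genes (98.7%) had a tissue value. Genes of the lists were matched by symbol or a single synonym. Culture depth was not recovered, since at most 4.65% of genes under 0.3 FPKM in both libraries of a pair shared 1 ratio. Tissue depth came from 30 chemosensory receptor transcripts, all whole reads within 0.01 of a read.

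Named genes were all 9 members, list genes past the 2-fold rule and the 3 of most similar course to each member; Pik3ca, Vamp2, Grb14, Acly, Slc2a2, Slc2a5 and Slc2a7 were chosen after their values were seen. Some list genes are not reported here by name. The members, lists and rules were chosen with earlier results of these data known. Alternatives tried were pseudocounts of 0.1 and 5, no filter on low values, median-of-ratios scaling, a common total, summed tissue transcripts and median-centred log2 differences. Python 3.11.15, pandas 2.3.3, numpy 2.4.6 and matplotlib 3.10.9 were used.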

Additional observations from a re-analysis of the deposited data

How the results depend on the processing

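No called difference of a member reversed under any alternative run. For the culture steps that outcome was nearly fixed, since pseudocounts and the filter cannot change a sign. The rescalings moved the median of all genes by far less than the limit of 1. Between day 0 and day -3, the members higher numbered 0 with a pseudocount of 5 or median-of-ratios scaling, against 1 (Pik3r1), and those lower numbered 0 with a common total, against 1 (Slc2a1); with a pseudocount of 0.1 the difference of Slc2a4 there was 2.65. The common total moved the median of all genes by 0.19 at that step and by 0.13 at day 7 over day -3. In the tissue, median-centred log2 differences in place of ranks gave 1 member higher, Slc2a4 at 1.62, and put Akt1 at -1.01 among the lower; the cause was not tested. Summing transcripts moved Akt2 over Akt1 in tissue to 2.88. With a pseudocount of 5 the genes called higher and lower over the whole table were 436 and 357 at day 0 over day -3, against 1201 and 576; 383 and 532 at day 2 over day 0, against 662 and 1146; 530 and 280 at day 7 over day 2, against 1026 and 548; and 1243 and 1035 at day 7 over day -3, against 2196 and 1597. With a common total those lower at day 0 over day -3 were 380. No paired analysis was possible because each group holds 1 library. With 1 library a group and unknown culture depth, no error can be set on any difference, and values near 0, such as Slc2a4 at day -3, are the least certain.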

Other observations

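The values below are in RPKM for tissue and FPKM for culture, so they stand side by side without a fold. Acly, Grb14, Slc2a2, Slc2a5 and Slc2a7 were chosen after their values were seen. Acly, ATP citrate lyase, which AKT phosphorylates, was at 805 RPKM in tissue and 100.005 FPKM in the day 7 culture. Grb14, an adaptor that inhibits the insulin receptor, was at 14.7 RPKM in tissue and 1.79 FPKM in culture, where it lay between 1.43 and 1.79 FPKM on all 4 days. Trib3 was at 3.46 RPKM in tissue and 125.6 FPKM in culture. Tbc1d1 was at 1.76 RPKM in tissue and 12.5 FPKM in culture, while Tbc1d4 was at 15.2 and 31.4.

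Slc2a5, a fructose transporter, has no culture value and was at 16.7 RPKM in tissue, above Slc2a1 there. The hexokinase genes in tissue were at 57.0 RPKM for Hk2 and 4.70 for Hk1, a ratio on the same side as at day 7. Slc2a2 and Slc2a7 were listed at 0 in tissue.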
